A study of Mus musculus with 3 samples.

Results

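*Lipg* (ENSMUSG00000053846), which encodes endothelial lipase, is 1 of the 27998 genes counted in the 3 single-cell libraries of CD133+ endothelial-like cells (ELCs). It was chosen by its level, which was higher in the old and in the control library than in the young library, so its levels and ratios between libraries are a description and were not tested. The cells were sorted by FACS for CD133, the product of *Prom1*, from the bone marrow of C57BL/6 mice without any transgene or treatment named in the labels, and cells of 3 mice were pooled in each library. The young and the control library both carry an age of 3 months. The old library carries an age of 27 months in its label and of 18.5 months in the series' design text. No label tells how the control mice differed from the young mice. With 1 library per label, mice, sort and library preparation cannot be told apart, and no p-value can be given. In comparisons with the old library, age cannot be told apart from these either.

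Endothelial lipase belongs to the triglyceride lipase family, together with lipoprotein lipase and hepatic lipase. It is secreted, stays bound to heparan sulphate on the cell surface and acts mainly as a phospholipase on high-density lipoprotein (HDL), which it depletes of phospholipid. Endothelial cells, macrophages and several organs are known to make it, and inflammatory cytokines such as TNF and IL-1 raise it in cultured endothelium. It is not among the textbook products of neutrophil precursors, which form most of the cells described here.

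In the GRCm38 annotation *Lipg* lies on the minus strand of chromosome 18 from 74939322 to 74961263. Its protein-coding transcript has 10 exons and 3787 nucleotides, and a second transcript with a retained intron has 8 exons. No other annotated gene overlaps it on either strand. Of 23 annotated genes within 500 kb, 8 were among the counted genes and 3 reached 10 UMIs per 1000000 UMIs (CPM) in any library. These 3 neighbours were *Acaa2*, a thiolase of mitochondrial fatty acid oxidation, the ribosomal protein gene *Rpl17* and *BC031181*. Their log2 ratio was 0.036 to 0.29 for old over young and -0.070 to 0.28 for control over young, whereas *Lipg* differed by 4.19 and 2.93.

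The files held 8362 young, 10869 control and 10597 old cells with a median of 9720, 9560 and 13039 unique molecular identifiers (UMIs) per cell. A UMI tags each captured mRNA so that PCR copies are counted once. After the limits on cells, 7456 young, 9820 control and 9562 old cells were kept, with 74430176, 98883381 and 116802768 UMIs. *Prom1* was at 43.6 CPM in the young, 52.9 in the control and 45.6 in the old library. The Y-linked *Ddx3y* was at 16.1 to 20.2 CPM and *Xist* at no more than 0.101 CPM in all 3 libraries, as in cells of male mice. Groups of other blood cells made up 9.64% of the kept young cells but 0.754% of the control and 0.858% of the old cells. Summed monocyte markers accordingly stood at 230 CPM in the young, 20.1 in the control and 30.1 in the old library. Between 120 and 161 barcode sequences occurred in both libraries of a pair.

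Markers of the neutrophil lineage were high in every library. The 5 promyelocyte markers summed to 14319 CPM in the young, 14433 in the control and 10356 in the old library, and the 5 markers of maturing neutrophils to 137294, 140294 and 148839 CPM, almost all of it *S100a8*. The other markers of maturing neutrophils differed between libraries. Of the 5, 4 were at least 1.5 times higher in old than in young cells (median log2 ratio 1.01) and 4 than in control cells (1.51). In control cells 2 were at least 1.5 times lower than in young cells. The shares of all compared genes past these limits were 4.34%, 5.35% and 6.64% in the same order. *Retnlg* was at 856.9 CPM in the young, 419.9 in the control and 1730 in the old library. Late markers were thus higher in old cells beside *Lipg*, whose levels in bands of *Retnlg* and *Mmp8* are given below. Endothelial markers were near 0 although the cells are called endothelial-like. None of 16 reached 10 CPM in any library and 13 stayed under 1 CPM in all 3. Their sum was 14.9 CPM in the young, 10.6 in the control and 10.8 in the old library, most of it from *Egfl7* and *Pecam1*. *Cdh5*, which encodes VE-cadherin, had 38 UMIs in the young, 3 in the control and 0 in the old library, and the endothelial receptor gene *Tek* had 1, 0 and 0. These sums are over all kept cells, of which other blood cells were a larger share in the young library.

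*Lipg* had 430 UMIs in the young, 4342 in the control and 12314 in the old library. This gave 5.78 CPM (exact 95% Poisson interval 5.24 to 6.35) in young cells, 43.9 CPM (42.6 to 45.2) in control cells and 105.4 CPM (103.6 to 107.3) in old cells. The order was young, control, old, and the intervals of neighbours did not overlap. The young and the control library carry the same age in their labels. Intervals here and below cover counting error only and not the spread between mice. The old level was 18.2-fold the young level (conditional binomial interval 16.6 to 20.1) and the control level 7.60-fold (6.88 to 8.41). The old level was 2.40-fold the control level (2.32 to 2.49). With the groups of other blood cells left out, the young level was 6.18 CPM and the folds over young were 17.1 for old and 7.14 for control.

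Among genes that reached 10 CPM in 1 or both libraries compared, 4.34% were at least 1.5 times higher in old than in young cells and 1.81% in control than in young cells. *Lipg* ranked 6th of 5761 genes for old over young and 1st of 5735 for control over young. For old over control it ranked 74th of 5475 genes, of which 5.35% were at least 1.5 times higher. The median log2 ratio of all genes was -0.15, -0.050 and -0.094 in these 3 comparisons. Besides *Lipg*, *Fam20c*, which encodes a kinase of secreted proteins, was at least 4 times higher than in young cells in both other libraries, of 5661 genes tested in both. It stood at 2.18 CPM in the young, 11 in the control and 16.5 in the old library. Both comparisons share the young library, so the coincidence is no second line of evidence.

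Most old cells held at least 1 *Lipg* UMI, whereas most young and control cells held none. In the young library 7112 of 7456 cells had no *Lipg* UMI, 289 had 1, and the highest cell had 5. In the control library 6905 of 9820 cells had none, and 2 cells had 9. In the old library 3920 of 9562 cells had none, 2467 had 1, 1443 had 2, and 2 cells had 12. Old cells had more UMIs in total, so shares were also taken with every cell of the neutrophil lineage thinned to 3000 UMIs.

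At this equal depth 109 of 6737 young cells had a *Lipg* UMI, or 1.62% (Clopper-Pearson interval 1.33 to 1.95). In the control library 1189 of 9746 cells did, or 12.2% (11.6 to 12.9), and in the old library 2299 of 9480 cells, or 24.3% (23.4 to 25.1). The unthinned shares of all kept cells were 4.61%, 29.7% and 59.0%. If *Lipg* UMIs fell on cells at one rate, 98.3% of young, 86.8% of control and 74.0% of old cells would have had none, and 98.4%, 87.8% and 75.7% had none. The variance of the UMIs per thinned cell was 1.09, 1.18 and 1.16 times their mean. At so few UMIs per cell the share without a UMI is set almost wholly by the mean, so these values cannot tell whether a class of cells without *Lipg* exists.

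**Figure D1:**
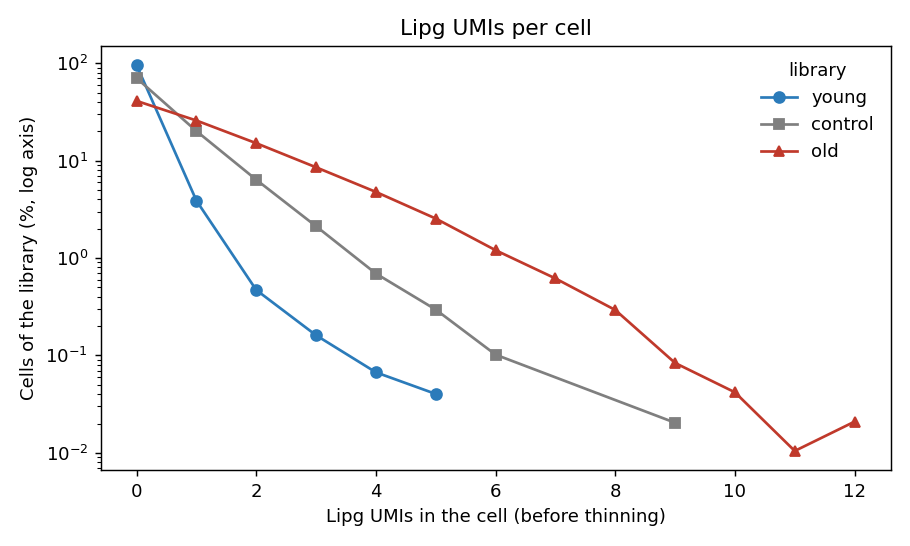
Share of kept cells (%, log axis) by the number of *Lipg* UMIs in the cell before thinning, for the young, control and old library; a number without a cell has no point. The highest cell had 5 UMIs in the young, 9 in the control and 12 in the old library.

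*Lipg* was also read in monocyte-like cells, whose UMIs of lineage genes can come from free RNA or from the cells themselves. The 420 young monocyte-like cells, with a median of 7879 UMIs, held 4 *Lipg* UMIs before thinning, or 1.07 CPM (0.290 to 2.73). This was 17.3% (4.68 to 44.5) of the level of the young lineage cells, whose median was 10275 UMIs, and *Ngp* and *Camp* stood at 18.4% and 17.8% in the same cells. After thinning 0 of the 420 cells had a *Lipg* UMI, which allows up to 0.874% of such cells by the exact interval, against 1.62% of the lineage cells. Among 38 control monocyte-like cells 1 had a *Lipg* UMI, and among 63 old ones 6 did, or 9.52% (3.58 to 19.6). Before thinning the old monocyte-like cells held 22 *Lipg* UMIs, or 34.5 CPM (21.6 to 52.3), which was 32.6% (20.4 to 49.4) of the level of the old lineage cells. In the same cells the granule genes *Ngp*, *Camp*, *Ltf* and *Lcn2* stood at 19.6%, 23.1%, 21.9% and 29.3% of their lineage level. *Elane* stood at 49.8% and *Mpo* at 60.9%. The old share of *Lipg* was above those of *Ngp*, *Camp*, *Ltf* and *Lcn2*, of which its interval left out only *Ngp*. It was below those of *Elane* and *Mpo*, which both lay above its interval. In the young library the share of *Lipg* was near those of *Ngp* and *Camp*. Its wide interval there also held *Ltf* at 19.9%, *Lcn2* at 20.6%, *Elane* at 26.7% and *Mpo* at 42.2%. Free RNA and a level of their own cannot be told apart here for monocyte-like cells.

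*Mpo*, the gene of myeloperoxidase, is highest in promyelocytes and falls as neutrophils mature, so cells were divided into 6 bands of *Mpo* UMIs per 10000 UMIs. In the old library *Lipg* stayed near one level over most of this range. It was 107.4 CPM below 1 *Mpo* UMI, 106.1 at 1 to 3, 104.7 at 3 to 10, 123.1 at 10 to 30, 96.5 at 30 to 100 and 63.1 at 100 and above, the last from 91 cells. In the control library it fell off in cells with much *Mpo*. The 6 levels there were 47.7, 53.9, 53.2, 40.4, 20.7 and 9.53 CPM in the same order. In the young library the levels were 5.81, 6.82, 7.31, 8.54, 4.63 and 1.09 CPM, the last from 7 UMIs (interval 0.440 to 2.25). The intervals of the 3 libraries did not overlap within any band.

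**Figure D2:**
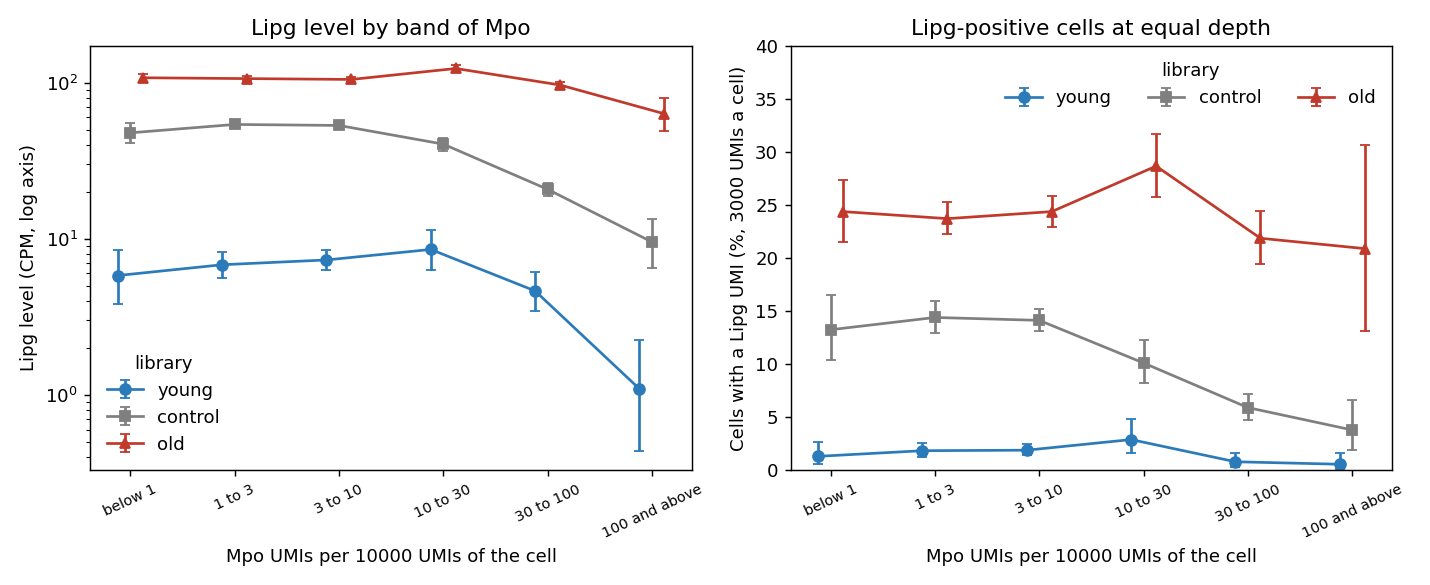
*Lipg* in 6 bands of *Mpo* UMIs per 10000 UMIs, for the young, control and old library without other blood cells. The left panel gives the level (CPM, log axis, exact 95% Poisson intervals) and the right panel the share of cells with a *Lipg* UMI at 3000 UMIs per cell (%, Clopper-Pearson intervals). The old library lies highest and the young library lowest in every band, and the control library falls from 53.2 CPM at 3 to 10 *Mpo* UMIs to 9.53 CPM at 100 and above.

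Shares at equal depth ran with the levels in the control and the young library. Control cells with a *Lipg* UMI made up 13.2% of the lowest band, 14.4% at 1 to 3, 14.1% at 3 to 10, 10.1% at 10 to 30, 5.88% at 30 to 100 and 3.77% of the highest. In the old library the 6 shares lay between 20.9% and 28.7%, and in the young library between 0.535% and 2.86%. The old level fell from 96.5 CPM at 30 to 100 to 63.1 CPM at 100 and above. The old shares in these bands were 21.9% (19.5 to 24.4) and 20.9% (13.1 to 30.7). The mean of *Lipg* UMIs per thinned cell was 0.285 and 0.341, so the fall was not seen at equal depth. The young library had its highest share, like the old library, at 10 to 30 *Mpo* UMIs. The young share there came from 14 of 489 cells. Its interval (1.57 to 4.76) overlapped those of the young bands at 1 to 3 and 3 to 10.

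The contrast along *Mpo* differed between the libraries in size. Control cells with at least 30 *Mpo* UMIs per 10000 had 19.0 CPM and those with fewer than 3 had 52.9 CPM, a log2 ratio of -1.48 (-1.64 to -1.32). The same ratio was -0.98 (-1.45 to -0.53) in young cells, from 3.33 and 6.59 CPM. In old cells it was -0.17 (-0.25 to -0.092), from 94.3 and 106.3 CPM. The interval of the old library did not overlap the other 2, which overlapped each other. The class of at least 30 *Mpo* UMIs was not the same mix in each library. Cells at 100 and above held 9.38% of the UMIs in the young, 3.41% in the control and 0.970% in the old library. The part of this mix in the differing contrasts was not tested. When cells were divided by the elastase gene *Elane* instead, the ratio was 0.56 (-0.60 to 2.03) in young cells, -0.89 (-1.44 to -0.27) in control cells and 0.015 (-0.14 to 0.17) in old cells. The control ratio thus stayed below 0, and the young and old intervals included 0. Few cells had fewer than 3 *Elane* UMIs, namely 222 young cells with 6 *Lipg* UMIs, 71 control and 362 old ones.

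The fold of the old over the control library varied along *Mpo*. Old cells were 2.25-fold, 1.97-fold and 1.97-fold higher than control cells in the 3 lowest bands, and 3.05-fold at 10 to 30 *Mpo* UMIs. They were 4.65-fold higher (4.16 to 5.22) at 30 to 100 and 6.62-fold (4.3 to 10.4) at 100 and above. The old over young fold was 14.3 to 20.8 in the 5 lower bands and 57.7 (26.6 to 148.8) in the highest, and the control over young fold was 4.47 to 8.72 over all 6.

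Weighting the bands by the mix of another library moved the levels little. Old cells with the UMI shares that the bands had in the young library would have been at 101.5 CPM instead of 105.9. Control cells with the old mix would have been at 46.5 CPM instead of 44.1, and young cells with the old mix at 6.74 CPM instead of 6.18.

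Groups of like cells were also formed by Leiden clustering with *Lipg* left out and each library centred. In 13 groups with at least 50 cells of both libraries, the old over young log2 ratio lay between 2.93 and 4.68. Control over young lay between 1.87 and 3.53 in 15 groups, and old over control between 0.63 and 2.44 in 13 groups. All ratios were above 0. The groups, like the *Mpo* bands, hold cells of the same libraries whose levels led to the choice of *Lipg*. The tally is thus a description and adds no separate support.

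**Figure D3:**
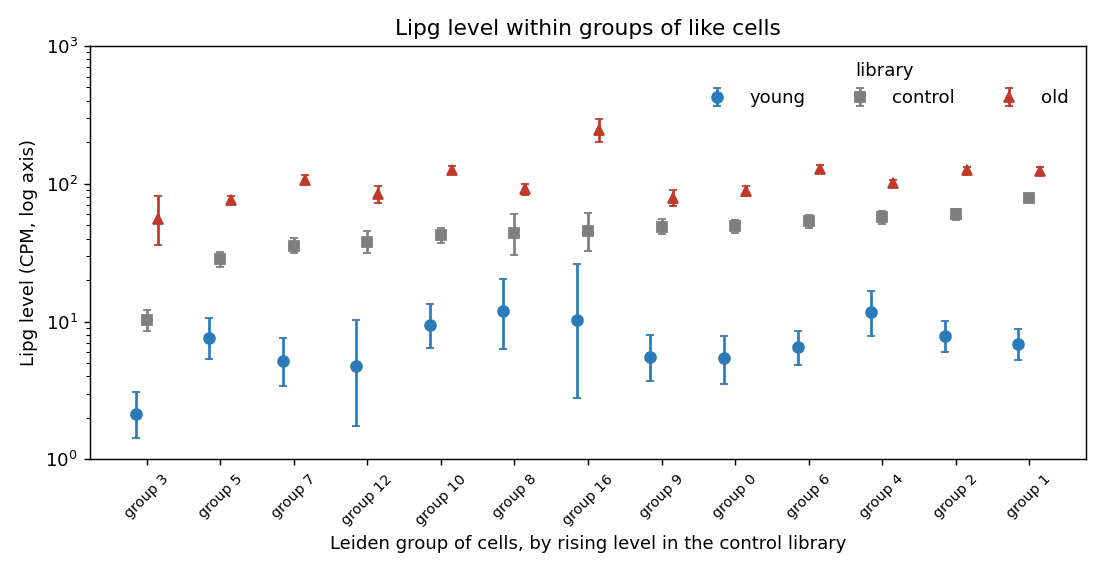
*Lipg* level (CPM, log axis) in the 13 Leiden groups with at least 50 cells of every library, ordered by the level in the control library. Points are libraries and bars exact 95% Poisson intervals. The young library is lowest and the old library highest in each of the 13 groups, and the control library spans 10.2 to 79.3 CPM.

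Within the control library the highest group was at 79.3 CPM (74.6 to 84.2) and was led by the mitotic genes *Ube2c*, *Fam64a* and *Cenpf*. The lowest was at 10.2 CPM (8.55 to 12.2) and was led by *Fkbp11*, *Ccnd2*, *Srm* and *Mpo*. A group led by genes of DNA replication, *Ccne2*, *Lig1* and *Pcna*, stood at 28.3 CPM. In the old library these 3 groups were at 123.1, 55.1 and 76.5 CPM, and in the young library at 6.88, 2.14 and 7.62 CPM. Another group had the replication genes *Hells*, *Cdt1*, *Mcm4* and *Ccne2* among its first 10 genes. It stood at 42.2 CPM in the control, 126.3 in the old and 9.45 in the young library, so groups with replication genes were not uniformly low. The highest level of all was 244.4 CPM (201.2 to 294.1) in 73 old cells of a group led by *Pf4* and mitochondrial transcripts, whose cells had a low median of 4746 UMIs over all libraries. Of the groups that were at least 90% old cells, the largest had 871 kept old cells at 124.0 CPM and was led by *Clu*, *Dmkn* and *Fdps*, with *Lipg* itself among its first 10 genes. The others stood at 82.3 and 89.8 CPM.

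Cells were then ordered by the cell cycle, among those with fewer than 30 *Mpo* UMIs per 10000. With rising UMIs of 16 mitosis genes the old level was 87.4, 101.1, 109.9 and 132.4 CPM. The control level was 45.8, 35.3, 55.1 and 70.0 CPM. The highest band exceeded the lowest by a log2 ratio of 0.60 (0.50 to 0.69) in old and 0.61 (0.44 to 0.79) in control cells. In young cells it was 0.20 (-0.34 to 0.76), which the depth does not separate from either 0 or the other libraries. Along 16 genes of S phase the control level was 58.8, 61.3, 37.8 and 21.1 CPM, the last from 32 cells, and the old level 101.3, 121.5, 102.8 and 99.2 CPM, the last from 27 cells. The young level was between 6.32 and 8.64 CPM.

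Late maturation was followed in the same cells by *Retnlg* and *Mmp8*, which are made late in neutrophil development. The old level was 70.3 CPM in the 59 cells below 1 UMI per 10000, 110.3 at 1 to 10, 107.9 at 10 to 100 and 79.3 in the 733 cells at 100 and above. In control cells it was 48.8, 52.5, 48.9 and 34.2 CPM, the last from 137 cells. In young cells it was 6.27, 6.75, 11.8 and 8.05 CPM. In the old library the highest band lay below both middle bands, outside their intervals. The log2 ratio of the highest over the lowest band had an interval that included 0 in every library.

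Genes that go with *Lipg* between cells were sought by comparing positive with negative cells at 3000 UMIs within the *Mpo* bands. There were 2299 positive and 7181 negative old cells, 1189 and 8557 control cells, and 109 and 6628 young cells. Of 1592 genes with at least 50 CPM, 0 were at least 1.5 times higher and 0 at least 1.5 times lower in both the old and the control library, so 0.0% passed in either direction. The middle 90% of log2 ratios lay between -0.092 and 0.15 in old and between -0.19 and 0.17 in control cells. In control cells alone 0 genes were higher and 2 lower past the limit, *Lig1* and *Ccne2*, and in old cells alone 0 and 0. With so few *Lipg* UMIs per thinned cell, which cells were positive was largely a matter of sampling, so ratios are drawn towards 0. The genes below are the ends of this range.

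**Figure D4:**
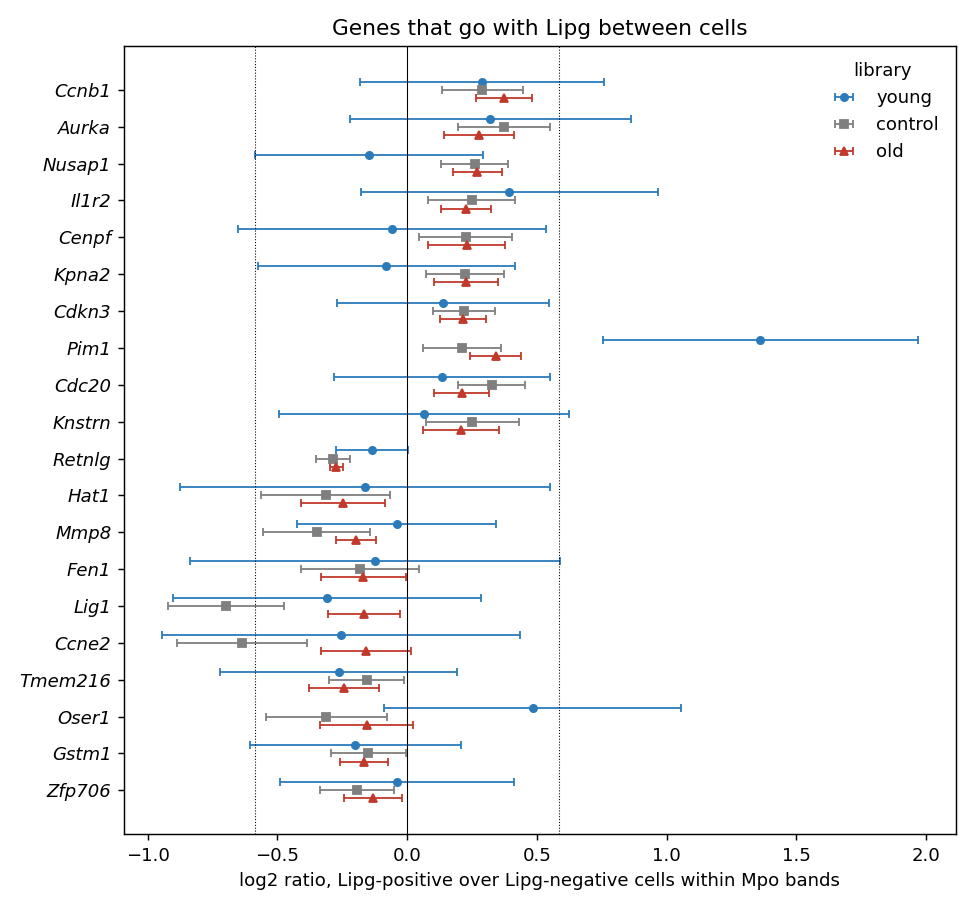
Log2 ratio of *Lipg*-positive over *Lipg*-negative cells within *Mpo* bands at 3000 UMIs per cell, for 10 genes at the upper and 10 at the lower end, ranked by the weaker of the old and control value. Points are libraries, bars 95% intervals over UMIs, and dotted lines the limit of 1.5 times. Old and control points lie on one side of 0 for every gene because the genes were chosen so, and young intervals are wide with 109 positive cells.

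At the upper end, *Ccnb1*, *Aurka*, *Nusap1* and *Cenpf* are also members of the mitosis list. *Ccnb1*, the gene of cyclin B1, was at 143.8 CPM in positive and 110.1 in negative old cells, a log2 ratio of 0.37 (0.27 to 0.48), and its ratio was 0.29 in control cells. The kinase gene *Aurka* had 0.28 in old and 0.37 in control cells, and *Cdc20*, which activates the anaphase-promoting complex, 0.21 and 0.33. *Nusap1*, *Cenpf* and *Knstrn*, whose products act at the spindle or kinetochore, and *Kpna2* and *Cdkn3* lay between 0.21 and 0.27. The remaining genes were *Il1r2*, the decoy receptor of IL-1, with 0.23 and 0.25, and the kinase gene *Pim1*, with 0.34 and 0.21. In the young library, which had no part in the choice, 7 of the 10 genes were above 0. The median log2 ratio of all 1592 genes there was -0.017. *Nusap1*, *Cenpf* and *Kpna2* were below 0, at -0.15, -0.058 and -0.080. Only *Pim1* had a young interval that left out 0, at 1.36 (0.76 to 1.97), from 70.3 CPM in positive and 26.8 in negative cells. There 17 genes of 1592 were at least 1.5 times higher and 59 at least 1.5 times lower.

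At the lower end stood *Retnlg* with -0.27 in old and -0.29 in control cells and *Mmp8*, the neutrophil collagenase, with -0.20 and -0.35. *Retnlg* was at 2410 CPM in positive and 2919 in negative old cells. Both are above its old library level because thinned cells all weigh alike here and other blood cells are left out. None of the 10 genes is on the S phase list, but some have a role in DNA replication. The ligase gene *Lig1* had -0.17 in old and -0.70 (-0.92 to -0.48) in control cells, *Ccne2*, the gene of cyclin E2, -0.16 and -0.64, and the flap endonuclease gene *Fen1* -0.17 and -0.18. The histone acetyltransferase gene *Hat1* had -0.25 and -0.31. *Tmem216*, *Oser1*, *Gstm1* and *Zfp706* lay between -0.31 and -0.13. In young cells 9 of the 10 were below 0 and *Oser1* was at 0.48, but all 10 intervals included 0.

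Whole lists showed the same order of size. In positive over negative cells the 16 mitosis genes together had a log2 ratio of 0.18 (SE 0.014) in old, 0.23 (SE 0.017) in control and 0.013 (SE 0.056) in young cells. The 16 S phase genes had -0.042 (SE 0.018), -0.28 (SE 0.024) and -0.15 (SE 0.072). The SE is over UMIs within 1 library. Without the bands, *Mpo* itself was at -0.93 in control, -0.94 in young and -0.12 in old positive cells, and *Elane* at -0.76, -0.77 and -0.052.

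The genes whose pattern was most like that of *Lipg* were found by Pearson's *r* of log2(CPM + 1) over the 18 groups of library and *Mpo* band, among 2819 genes. These groups share libraries and depth, so *r* is a description. *Rab24*, a small GTPase gene linked to autophagy, had 0.95, *Pim1* 0.95, *Prelid1*, a carrier of phosphatidic acid between mitochondrial membranes, 0.94, and *Csf2rb*, the common beta chain of the GM-CSF and IL-3 receptors, 0.93. *Tspo*, an outer mitochondrial membrane protein that binds cholesterol, had 0.93, the adenosine deaminase gene *Ada* 0.90, the haptoglobin gene *Hp* 0.90 and *Dstn*, an actin-severing factor, 0.90. Their rise between libraries was smaller. *Rab24* was at 112.9, 193.9 and 232.5 CPM in the young, control and old library, *Pim1* at 31.0, 99.9 and 145.6 CPM and *Tspo* at 801.6, 1185 and 1779 CPM.

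Within single libraries the likeness held to different extents. Over the 6 bands of one library *Prelid1* had *r* of 0.93 in young, 0.99 in control and 0.99 in old cells, and *Rab24* 0.92, 0.96 and 0.95. *Tspo* had 0.86 in control and 0.95 in old cells but -0.79 in young cells, where its level rose towards high *Mpo*.

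**Figure D5:**
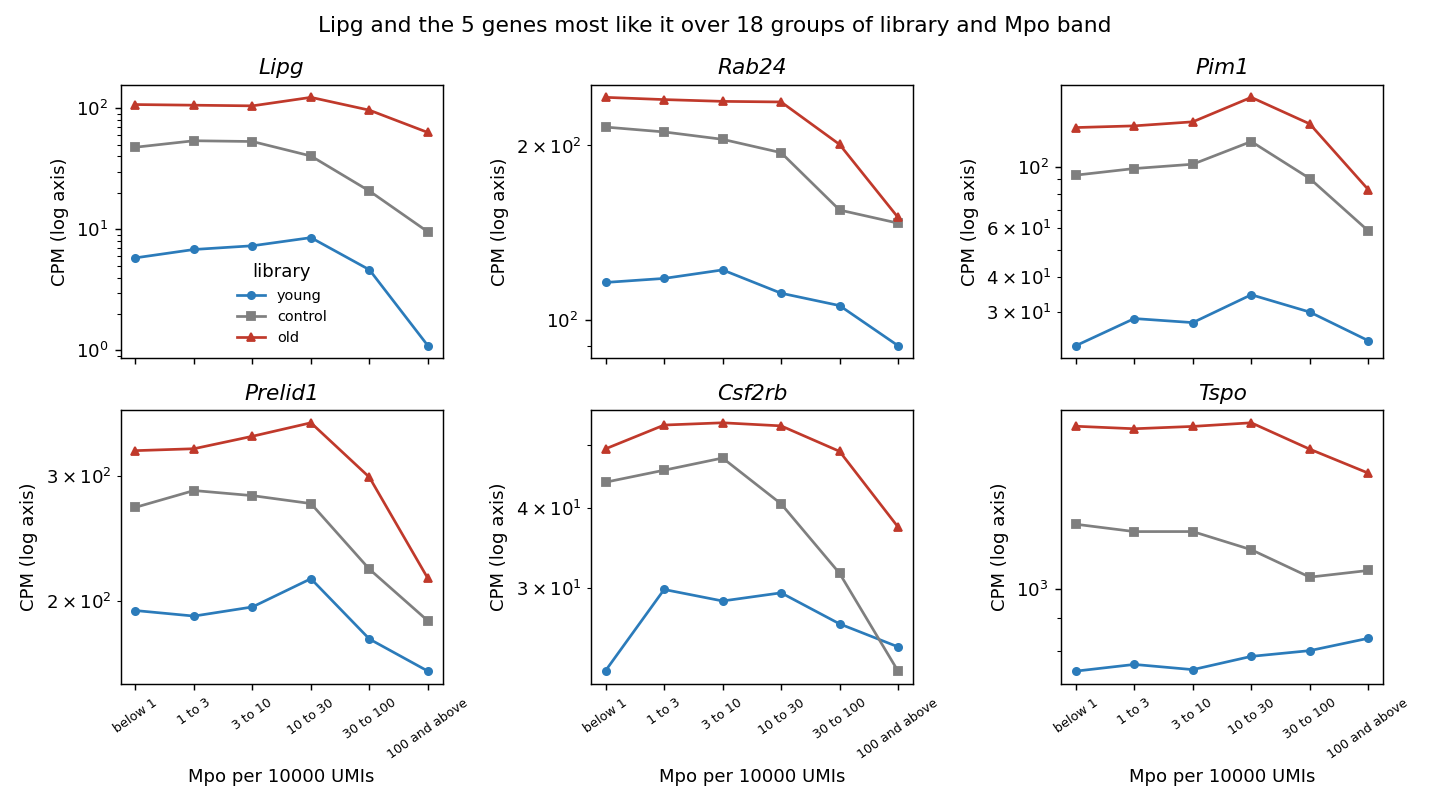
Level (CPM, log axis) of *Lipg* and of the 5 genes with the highest correlation to it over 18 groups, by band of *Mpo* UMIs per 10000 UMIs and library. In young cells *Tspo* runs opposite to *Lipg* (*r* of -0.79 over 6 bands), while *Rab24* and *Prelid1* follow it in all 3 libraries.

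The relatives of *Lipg* did not share its pattern. Of 18 lipases listed, *Lipg* included, 11 were under 1 CPM in every library. *Lpl*, the gene of lipoprotein lipase, was at 2.79 CPM in the young, 0.647 in the control and 0.325 in the old library, in the opposite order to *Lipg*. These levels are over all kept cells, of which other blood cells were a larger share in the young library. Their part in the level of *Lpl* was not tested. *Lipc*, the gene of hepatic lipase, was at 0.107, 0.071 and 0.283 CPM. The lysosomal *Lipa* was at 9.53, 4.81 and 6.07 CPM, and the hormone-sensitive *Lipe* at 6.02, 5.63 and 7.37 CPM. Besides *Lipg* 2 lipases could be compared between old and young cells. *Pnpla2*, the adipose triglyceride lipase, was at 14.4, 10.9 and 12.2 CPM, within the limit of 1.5 times. *Mgll*, which cleaves monoglycerides, was at 10.4, 7.89 and 4.55 CPM and so at least 1.5 times lower in old cells, as were 15% of all genes.

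Of 18 genes whose products bind, fold, cleave or inhibit the enzyme, 3 could be compared between old and young cells. As many could be compared between control and young cells, and 2 between old and control cells. None of these was past the limit. Over all genes, 4.34% were higher and 15% lower in old than in young cells, and 1.81% and 6.64% in control than in young cells. The shares were 5.35% and 9.68% in old against control cells. *Sel1l*, a factor that helps lipases leave the endoplasmic reticulum, was at 21.2, 20.3 and 17.0 CPM in the young, control and old library. The proprotein convertase gene *Furin*, whose product cleaves endothelial lipase, was at 10.1, 10.9 and 9.17 CPM, and *Ext2*, of heparan sulphate synthesis, at 10.0, 8.46 and 6.78 CPM. *Lmf1*, needed to fold the lipases, was at 4.10, 2.36 and 1.40 CPM. The inhibitor gene *Angptl4* was at 2.59, 2.67 and 0.959 CPM. *Gpihbp1*, which carries lipoprotein lipase on capillaries, had 2, 0 and 0 UMIs. The syndecan gene *Sdc3* was at 2.83, 0.222 and 0.068 CPM, *Sdc4* at 2.40, 0.142 and 0.026 CPM and *Sdc2* at 1.41, 3.68 and 0.685 CPM. *Angptl8* went the other way from young to old, at 0.228, 0.354 and 0.342 CPM. These scarcer genes were under 10 CPM everywhere and so were not counted. *Lmf1*, *Angptl4*, *Sdc2*, *Sdc3* and *Sdc4* were still more than 1.5 times lower in old than in young cells (log2 ratio -6.55 to -1.04). These levels are over all kept cells, of which other blood cells were a larger share in the young library. The part of those cells in the lower levels was not tested, and no share of all genes was taken below 10 CPM.

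Of 25 genes that handle HDL and phospholipids, 9 could be compared between old and young cells. *Lpcat2*, a lysophosphatidylcholine acyltransferase, was the 1 at least 1.5 times higher, against 4.34% of all genes, with 31.8, 28.3 and 55.3 CPM. *Apoe* was the 1 at least 1.5 times lower, against 15% of all genes, with 46.8, 8.09 and 9.92 CPM. In old against control cells 2 of 8 were higher, *Lpcat2* (log2 ratio 0.96) and *Fabp5* (1.80), and 0 lower. Of all genes 5.35% were higher and 9.68% lower there. In control against young cells 0 were higher and 2 lower, *Apoe* and *Fabp5*, where 1.81% of all genes were higher and 6.64% lower. The HDL receptor gene *Scarb1* was at 14.6, 17.4 and 18 CPM. *Apoa1*, the main HDL protein, had 0, 1 and 1 UMIs. Summed monocyte markers were highest in the young library too (230 against 20.1 and 30.1 CPM), and their part in the level of *Apoe* was not tested.

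The signals known to raise *Lipg* in endothelium were followed through 16 genes of TNF and IL-1 signalling, 7 of which could be compared between old and young cells. *Il1r2* was at 47.5, 74.1 and 145.2 CPM and *Myd88*, the adaptor of the IL-1 receptor, at 30.3, 35 and 57.4 CPM, both at least 1.5 times higher in old cells, as were 4.34% of all genes. *Nfkb1* was at 27.2, 22.2 and 17.5 CPM and the TNF receptor gene *Tnfrsf1b* at 12.6, 7.21 and 6.09 CPM, both at least 1.5 times lower, as were 15% of all genes. *Tnfrsf1a* was at 64.1, 47.6 and 48.3 CPM. The median log2 ratio of the 7 compared genes was 0.054, beside -0.15 for all genes. The cytokine genes themselves were under 10 CPM and so were not counted. *Il1b* was at 5.60, 0.698 and 1.54 CPM, in which old cells were below young cells, and *Tnf* at 6.17, 6.35 and 6.39 CPM. Other blood cells were a larger share of the young library, and their part in the level of *Il1b* was not tested. *Il6* had 17, 7 and 0 UMIs and *Il1a* 1, 2 and 0. In *Lipg*-positive over negative cells the list had 0.15 (SE 0.025) in old, 0.11 (SE 0.036) in control and 0.32 (SE 0.11) in young cells. These ratios are of summed UMIs and mostly follow 2 genes. *Nfkbia* made up 272.5 and *Il1r2* 145.2 of the list's 581.7 CPM in the old library. *Il1r2* was also among the 10 genes chosen above from the same comparison.

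Targets of SREBP-2, the transcription factor of sterol synthesis, were mostly higher in old cells. Of 13 that could be compared between old and young cells, 12 were at least 1.5 times higher, against 4.34% of all genes, with a list median of 1.01. *Fdps*, the gene of farnesyl diphosphate synthase, was at 108.7, 190.9 and 364.6 CPM, *Msmo1* at 20.8, 30.4 and 60.0 CPM and *Sqle*, the gene of squalene epoxidase, at 2.78, 8.05 and 14.9 CPM. In control over young cells 3 of 7 were higher, against 1.81% of all genes, with a median of 0.55. In old over control cells 9 of 13 were higher, against 5.35% of all genes, with a median of 0.76. Within libraries the list was at 0.19 (SE 0.024) in old, 0.18 (SE 0.044) in control and 0.16 (SE 0.17) in young *Lipg*-positive over negative cells. These ratios are of summed UMIs too, and *Fdps* made up 364.6 of the list's 644.4 CPM in the old library.

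Of 16 mitosis genes, 0 were past the limit in any of the 3 comparisons, and of 16 S phase genes 0 were higher and 2 lower in old than in young cells, where 15% of all genes were lower.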

How the data were processed

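Single CD133+ bone marrow cells were sequenced with the 10x Chromium 3′ v2 kit. The submitters' processing notes name STAR, Cell Ranger 2.1.0 and mm10, and the authors deposited raw UMI counts per gene and cell without normalization. GENCODE M21 (GRCm38), from which positions were taken, held 27645 of the 27998 gene identifiers. Whether counting used strand is not given in the sources used here.

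Cells with under 200 genes, over 20% mitochondrial UMIs or a UMI count outside the 5th to 95th percentile of all cells were removed, leaving 3648 to 19252 UMIs per cell. Leiden groups (2000 variable genes without *Lipg*, 20 components, 15 neighbours, resolution 1) that had 3 or more markers of a non-neutrophil blood cell at 10 CPM and 10 times above the rest were set aside: 719 young, 74 control and 82 old cells. Scrublet marked 2, 2 and 307 cells, which were kept. It marked under 0.5% of the young and control cells, so its calls there were not relied on and doublets may remain.

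Levels are summed UMIs per 1000000 (CPM). Levels of positive and negative cells are of thinned cells, which all weigh alike, so they can differ from the library levels. Intervals are exact at 95%. Positive and negative cells were compared by Mantel-Haenszel rate ratios over *Mpo* bands. With 1 library per label nothing was tested, and a gene counts when past 1.5 times with 10 CPM or more in 1 of the libraries (50 CPM in both the old and the control library between cells). Named genes are *Lipg*, the 10 highest and 10 lowest between cells, the 8 most like it, list members with at least 10 CPM and genes within 500 kb. Some list members are not reported here. Scarcer list members and *Fam20c* were named after their values were seen. *Lipg*, the lists and the limits were chosen with earlier results of these data known. Bands of the mitosis, S phase and *Retnlg* genes were added after nearly all cells fell in 1 band of late granule genes. Scripts were tested on simulated data. Software was scanpy 1.11.5 with its Scrublet, leidenalg 0.10.2, scipy 1.17.1 and numpy 2.4.6 under Python 3.11.15.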

Additional observations from a re-analysis of the deposited data

How the results depend on the processing

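No paired analysis was possible because each label has 1 library and no replicate number. Of 59 alternative values, 45 kept their direction and stayed within their counting interval or limit, 12 moved and 2 changed sign. Without scaling for depth the log2 ratio was 4.48 for old over young and 1.54 for old over control. With *Mpo* bands weighted equally, control over young was 2.72 and old over control 1.41. In cells with *Mpo* below 30 and mitosis genes below 5 UMIs per 10000, chosen after seeing the data, old over young was 3.54, control over young 2.61 and old over control 0.93. Thinning to 5000 UMIs, which left out 715 young, 948 control and 308 old cells, gave shares of 2.87%, 18.7% and 36.2%, as more UMIs per cell must. Bands of *Elane* in place of *Mpo* gave high over low ratios of 0.56 in young and 0.015 in old cells, both with a changed sign, and -0.89 in control cells. The cause was not tested. With at least 2 *Lipg* UMIs for a positive cell, 1 gene was at least 1.5 times lower in both libraries, against 0. Leaving out groups with at least 90% of their cells from 1 library, also chosen later, gave 4.22, 2.95 and 1.26. Leaving out a replicate was not possible with 1 library per label. The young level rests on 430 UMIs, so its bands and its positive cells are the least precise values.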
